A study of Mus musculus with 4 samples.

Results

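The neuronal RNA-binding splicing regulators described here are 10 genes chosen by name: Rbfox1, Rbfox2 and Rbfox3 of the RBFOX family, Nova1 and Nova2, the neuronal ELAV-like genes Elavl2, Elavl3 and Elavl4, Celf4 and Ptbp2. They were 10 of the 29300 genes counted, and all 10 passed the filter on low counts. RNA was sequenced from the hippocampus of 4 male C57BL/6 mice aged 7 to 8 months, 2 control (sham) mice and 2 surgery mice. The surgery mice had an open fracture of the tibia fixed with an intramedullary nail under isoflurane anesthesia and tramadol analgesia, a mouse model of perioperative neurocognitive disorder. The control mice had isoflurane and tramadol too but no fracture, and tissue of all 4 was taken on day 1. The comparison of surgery with control therefore bears on fracture and nailing together, with the anesthetic and the analgesic present in both groups. Whole hippocampus was used, so that fewer neurons and less RNA per neuron cannot be told apart in these counts.

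These proteins decide which exons neurons keep. RBFOX proteins bind the element UGCAUG in introns beside an exon, and NOVA proteins bind clusters of YCAY elements. Where such an element lies, upstream or downstream of the exon, sets whether the exon is skipped or included. The neuronal ELAV-like proteins, also called HuB, HuC and HuD, bind U-rich and AU-rich elements, act on splicing, and stabilize mRNAs through their 3′ UTRs. CELF4 binds UG-rich elements and controls the stability and translation of mRNAs in excitatory neurons. PTBP2 is the neuronal form of the polypyrimidine tract-binding protein and represses exons that belong to mature neurons. RBFOX3 is the antigen of the antibody NeuN, by which neurons are stained in the hippocampus.

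Members of a family make near-identical RNA-binding domains from genes of different base composition. A stretch of 30 codons is shown for the neuronal ELAV-like genes and for the NOVA genes, because the fold changes within these families were ordered by base composition. Each stretch is 90 bases of the coding strand within 1 exon, from GENCODE M21 on mm10, chosen because its codons give the same residues in each member of the family. Capitals mark the positions at which the bases differ between the members. Elavl2 is read from chr4:91253291-91253380 on the minus strand (exon 8), Elavl3 from chr9:22018554-22018643 on the minus strand (exon 7) and Elavl4 from chr4:110206383-110206472 on the minus strand (exon 7).
Elavl2: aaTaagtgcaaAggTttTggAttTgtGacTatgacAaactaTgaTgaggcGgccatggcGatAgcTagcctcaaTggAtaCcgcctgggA
Elavl3: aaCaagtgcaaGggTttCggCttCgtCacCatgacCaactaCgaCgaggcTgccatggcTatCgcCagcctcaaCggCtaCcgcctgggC
Elavl4: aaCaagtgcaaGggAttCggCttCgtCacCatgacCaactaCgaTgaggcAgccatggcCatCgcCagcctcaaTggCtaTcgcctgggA

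At the 19 differing positions of these ELAV-like stretches, Elavl2 had G or C at 4, Elavl3 at 16 and Elavl4 at 13. Over the whole coding sequence, Elavl2 and Elavl4 shared 88.1% of the residues of 370 aligned codons, and Elavl2 and Elavl3 shared 82.2% of 359. The 3′ UTRs differed more in composition than the coding parts. The 3′ UTR was 33.4% G and C in Elavl2, 32.0% in Elavl4 and 50.4% in Elavl3, while the coding sequence was 46.7%, 51.1% and 58.6%. The NOVA stretches lie in exon 2 of each gene, at chr12:46816929-46817018 on the minus strand for Nova1 and at chr7:18942227-18942316 on the plus strand for Nova2.
Nova1: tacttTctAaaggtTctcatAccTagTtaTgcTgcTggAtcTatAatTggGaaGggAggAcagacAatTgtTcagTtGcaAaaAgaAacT
Nova2: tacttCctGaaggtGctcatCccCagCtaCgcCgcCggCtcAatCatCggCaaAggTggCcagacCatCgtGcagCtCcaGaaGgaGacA

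These NOVA stretches give the same residues yet differ at 26 bases in 25 of the 30 codons, with G or C at 3 of them in Nova1 and at 22 in Nova2. The last positions of codons were 42.8% G and C over the whole coding sequence of Nova1 and 85.2% in Nova2. The members could be told apart by their reads: no 75 nt window of a member's transcripts occurred in another gene, apart from 2.61% of the windows of Elavl3 and 2.72% of those of Nova1, which lie in the predicted genes Gm49318 and Gm33869 overlapping them on the same strand.

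The libraries held 15763432 to 18573386 counts each, with 24238 to 25324 genes detected. Counts were tested with edgeR's quasi-likelihood test, and a gene is said to have changed where its adjusted p-value over the 17144 genes tested was under 0.05. Levels are given as CPM, the counts of a gene for every 1000000 counts of the scaled library, and fold changes are log2 values of surgery over control with their standard errors. With 2 mice a group, the test draws the spread of a gene toward that of other genes. The p-values therefore do not rest on the gene's own spread alone, and they cover only these 4 animals. All 7 markers of hippocampal neurons were detected, but they moved with the groups. Neurod6 and Zbtb20 rose and Wfs1, Hpca and Fibcd1 fell, beside 26.0% of all genes called, and all 7 had groups that did not overlap, beside 65.5% of all genes. With the correction for GC content and transcript length described below, edgeR called 0 of the 7 on the longest transcript and 1 (Fibcd1) on the mean over transcripts. The shares of all genes were 3.03% and 4.98%. At an unadjusted p under 0.05 in edgeR were 3 and 5 of the 7, beside 22.8% and 24.5% of all genes. Their sum was 2639 to 2833 CPM in control mice and 2204 to 2424 CPM in surgery mice. The part of these hippocampal neurons in the changes of the regulators was not tested. General neuron markers summed to 5523 to 5582 CPM in control mice and 5258 to 5432 CPM in surgery mice. Choroid plexus markers summed to 119.9 CPM in control 1, 5293 CPM in control 2 and 1987 to 3377 CPM in the surgery mice, and values without control 2 are given where they matter.

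Of the 10 regulators, 5 changed, against 26.0% of all genes tested. Elavl2, Elavl4, Celf4 and Ptbp2 rose, where 13.1% of all genes rose, and Nova2 fell, where 12.8% of all genes fell. Elavl2 and Elavl4 also exceeded a fold change of 1.5, as did, with those at or under 0.67, 9.01% of all genes. The groups of mice did not overlap for 8 of the 10 members, 6 higher and 2 lower in the surgery mice, against 65.5% of all genes tested (33.2% higher and 32.2% lower). The median log2 fold change of the 10 was 0.19, against 0.01 over all genes. It was 0.13 without control 2 and 0.16 without surgery 2. With the correction for GC content and length it was 0.065, or 0.11 with the mean over transcripts. All genes then had medians of -0.01 and -0.02. Whether a member rose or fell went with the GC content of its transcript, and with correction for GC content and transcript length 2 of the 10 passed the test, both lower, against 3.03% of all genes in either direction and 2.05% lower. With the mean over all transcripts of a gene in place of the longest, 3 of the 10 passed, against 4.98% of all genes. Over all genes, 2250 of the 4449 changed genes were higher, against 167 of 518 with the correction.

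**Figure D1:**
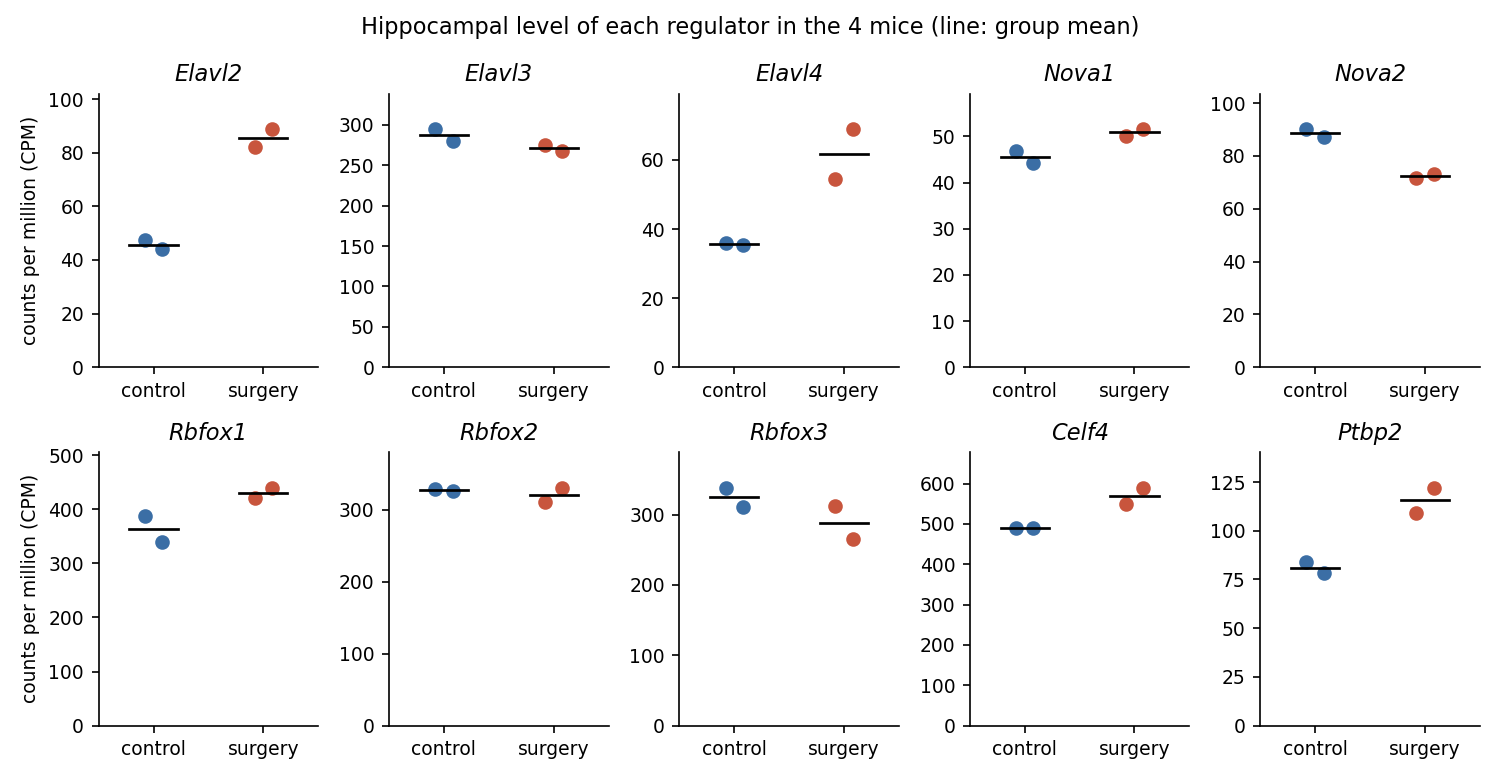
Level of each of the 10 regulators, in CPM on an axis from 0, with 1 point for each mouse (control blue, surgery red) and a line at each group mean. Relative to their control levels, Elavl2, Elavl4 and Ptbp2 show the widest gaps, with both surgery mice above both control mice, while Nova2 lies lower in the surgery mice and Rbfox2 and Rbfox3 overlap.

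Among the neuronal ELAV-like genes, Elavl2 and Elavl4 rose and Elavl3 did not pass the test. Elavl2 (chr4:91250763-91400785), which encodes HuB, stood at 47.4 and 44.2 CPM in control mice and at 82.3 and 88.8 CPM in surgery mice. Both surgery mice were far above both control mice, and the mice of each group lay close together. Elavl2 rose by 0.90 ± 0.08 (SE, n = 2 per group) on the log2 scale, a fold of 1.87 (edgeR adjusted p = 0.00428), and this was the largest change among the 10. Elavl4 (chr4:110203722-110351909), which encodes HuD and is known for its part in axon growth and neuronal plasticity, stood at 35.8 and 35.3 CPM in control mice and at 54.4 and 68.9 CPM in surgery mice. The control mice were nearly equal, and the surgery mice were apart from each other but both higher. Elavl4 rose by 0.79 ± 0.12, a fold of 1.73 (edgeR adjusted p = 0.00701). Elavl3 (chr9:22015005-22052023), which encodes HuC, the most abundant of them, stood at 295 and 280 CPM in control mice and at 276 and 268 CPM in surgery mice. The groups did not overlap but came close, and the log2 difference of -0.08 ± 0.06 did not pass the test (edgeR adjusted p = 0.374). With the GC content and length correction on the longest transcript, Elavl2 stood at 0.28 (edgeR adjusted p = 0.0811) and Elavl4 at 0.19 (edgeR adjusted p = 0.333), both still higher but short of the threshold, and Elavl3 at 0.09 (edgeR adjusted p = 0.51), so that all 3 had the same sign. Where the mean over all transcripts of a gene was used for the correction, Elavl2 passed at 0.65 (edgeR adjusted p = 0.0201) and Elavl4 did not at 0.28 (edgeR adjusted p = 0.171).

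The NOVA genes moved in opposite directions in the uncorrected counts, with only Nova2 past the test. Nova2 (chr7:18925888-18965319), the main NOVA protein of the forebrain and the cortex, stood at 90.2 and 87.3 CPM in control mice and at 71.6 and 73.1 CPM in surgery mice. Both surgery mice were lower, and the mice within a group were within a few CPM. Nova2 had a log2 fold change of -0.30 ± 0.07 (edgeR adjusted p = 0.0215). This call was lost whichever mouse was left out: the fold change then ran from -0.32 to -0.28, with edgeR adjusted p-values of 0.0547 without surgery 1, 0.0588 without surgery 2, 0.0592 without control 2 and 0.0772 without control 1. It was also lost with the GC content and length correction, at -0.07 (edgeR adjusted p = 0.608). Exons of Nova2 overlap the gene Gm26821 on the opposite strand by 2652 bases, and the use of strand in the counting is not given in the sources used here. Nova1 (chr12:46694517-46818929), which is most active in the hindbrain and spinal cord, stood at 46.8 and 44.3 CPM in control mice and at 50.2 and 51.6 CPM in surgery mice. The surgery mice were slightly higher without overlap, but the log2 difference of 0.16 ± 0.08 did not pass (edgeR adjusted p = 0.178). With the correction for GC content and length the sign turned, and Nova1 was lower in surgery mice at -0.48 (edgeR adjusted p = 0.0336), or at -0.54 with the mean over transcripts (edgeR adjusted p = 0.026). For Nova1 both the direction and the call turned on the correction.

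The RBFOX genes were among the most abundant of the members and did not pass the test. Rbfox1 (chr16:6809222-7412479), a regulator of neuronal excitability, stood at 387 and 339 CPM in control mice and at 420 and 440 CPM in surgery mice. Both surgery mice were above both control mice, with the control mice further apart than the surgery mice. The log2 difference was 0.24 ± 0.08 (edgeR adjusted p = 0.0616). It passed with scaling by library totals (edgeR adjusted p = 0.035) or by neuron markers (edgeR adjusted p = 0.0332) and in DESeq2 (adjusted p = 0.0313). It also passed without control 1, at 0.34 (edgeR adjusted p = 0.0271), and stood at 0.15 without control 2 (edgeR adjusted p = 0.263). With the correction the difference was 0.02 on the longest transcript and 0.36 on the mean over transcripts, neither of which passed (edgeR adjusted p = 0.885 and 0.06). Rbfox2 (chr15:77078990-77307053), which is also expressed outside the nervous system, stood at 328 and 326 CPM in control mice and at 310 and 331 CPM in surgery mice. The groups overlapped, and the log2 difference was -0.03 ± 0.06 (edgeR adjusted p = 0.744). Rbfox3 (chr11:118489762-118911597), the NeuN gene, stood at 338 and 311 CPM in control mice and at 312 and 265 CPM in surgery mice. Surgery 1 lay level with control 2 and surgery 2 lay below all others. The log2 difference was -0.17 ± 0.09 (edgeR adjusted p = 0.216), and it passed without surgery 1, at -0.31 (edgeR adjusted p = 0.031). With the correction it was 0.13, so neither a fall nor a rise of the NeuN transcript was shown.

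Celf4 and Ptbp2 rose in the uncorrected counts, and differed in how they stood with the correction. Celf4, a regulator of excitability in excitatory neurons, stood at 490 CPM in each control mouse and at 549 and 590 CPM in surgery mice. The control mice were equal to within 1 CPM, and both surgery mice were higher. Celf4 rose by 0.22 ± 0.06 (edgeR adjusted p = 0.0424). The rise was of the same size with the correction, at 0.21 (edgeR adjusted p = 0.107), and passed with the mean over transcripts at 0.37 (edgeR adjusted p = 0.0309). Its call was lost without control 1, control 2 or surgery 2 (edgeR adjusted p = 0.123, 0.137 and 0.16), with the fold change from 0.17 to 0.25 over all 4 omissions. Ptbp2 (chr3:119718742-119784466) stood at 84.1 and 78.1 CPM in control mice and at 109 and 122 CPM in surgery mice. The gap between the groups was wider than that between the mice of either group. Ptbp2 rose by 0.51 ± 0.08, a fold of 1.42 (edgeR adjusted p = 0.00789), and this rise passed whichever mouse was left out. Its longest transcript was the poorest in G and C of the 10, at 34.3%, and with the correction on that transcript the sign turned to -0.47 (edgeR adjusted p = 0.0262). With the mean over its transcripts the value was 0.05 (edgeR adjusted p = 0.727), so the corrected direction of Ptbp2 depended on the transcript taken for it.

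Cells switch from PTBP1 to PTBP2 as they become neurons, and the ratio of Ptbp2 to Ptbp1 within a library needs no scaling. Its log2 value was 1.77 in control 1, 1.04 in control 2, 1.71 in surgery 1 and 1.79 in surgery 2. Control 2 stood apart and the other mice lay together. The mean difference of 0.34 gave p = 0.667 in the exact two-sided permutation test, whose smallest p for these 4 mice is 0.333. With the correction for GC content and length the difference turned to -0.80, or to -0.34 with the mean over transcripts. Without control 2, the library with the most choroid plexus marker counts, the difference was -0.02. Ptbp1 itself stood at 24.7 CPM in control 1 and 37.9 CPM in control 2, with 33.4 and 35.3 CPM in the surgery mice, and the part of choroid plexus RNA in this was not tested.

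The order of the members by level, given as CPM per kilobase of exon, changed at its lower end. In control mice Rbfox1 came first at a mean of 82.5, followed by Celf4 at 57.1, Rbfox3 at 55.8, Elavl3 at 41.7 and Rbfox2 at 40.2. The ranges of Celf4 and Rbfox3 overlapped in the control mice, as did those of Elavl3 and Rbfox2 in the surgery mice. The other members were several times lower, with Nova2 at 10.6, Ptbp2 at 8.84, Elavl4 at 6.61, Elavl2 at 5.51 and Nova1 at 5.21. Elavl2 and Nova1 overlapped in the control mice. In surgery mice Nova2, at a mean of 8.64, lay below Ptbp2 at 12.6, Elavl4 at 11.4 and Elavl2 at 10.3, with no overlap, and above Nova1 at 5.81. The ranges of Ptbp2 and Elavl4, and of Elavl4 and Elavl2, overlapped in the surgery mice. These levels are uncorrected. With the GC content and length correction the log2 changes were -0.47 for Ptbp2, 0.19 for Elavl4, 0.28 for Elavl2 and -0.07 for Nova2. Per kilobase of exon union, these were too small to carry Ptbp2, Elavl4 or Elavl2 past Nova2 from their control levels. The order depends on the length used. The exon union was 9175 bases in Ptbp2, 8313 in Elavl2 and 5387 in Elavl4, against 4047, 4191 and 4149 for the longest transcript. For Nova2 both were 8372 bases, so the longest transcript would raise those genes against Nova2. The order on that length was not tested.

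**Figure D2:**
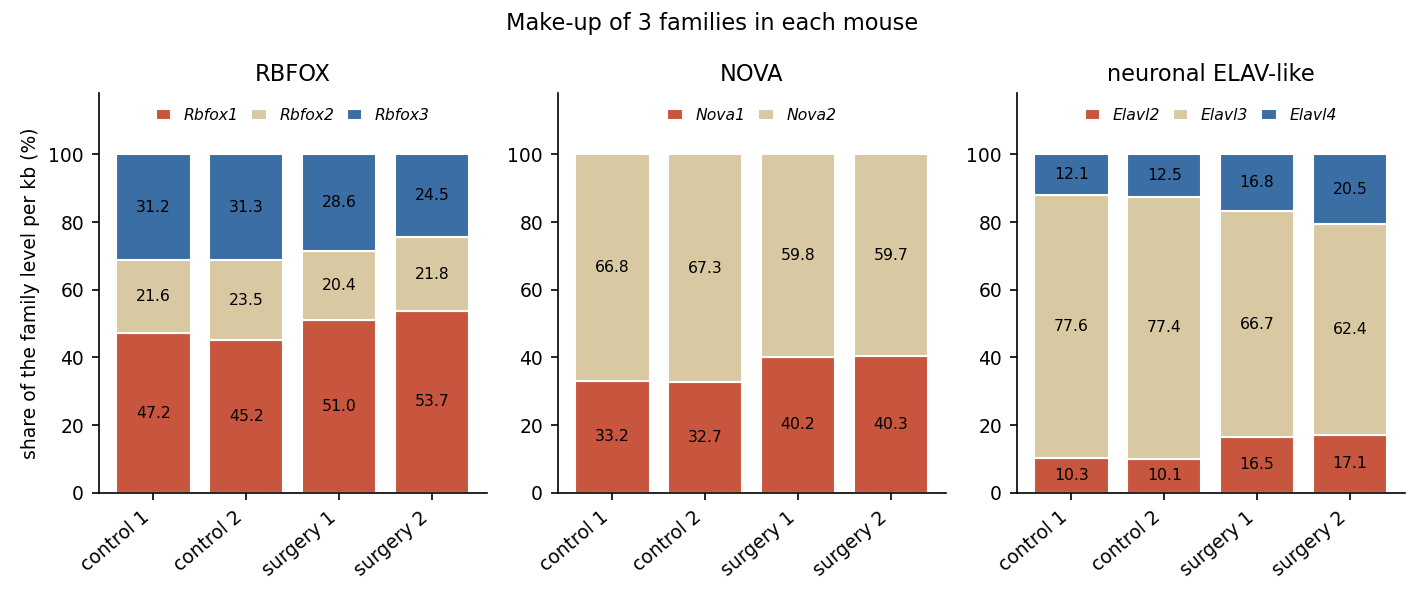
Share of each gene in the summed level of its family, in percent of the CPM per kilobase of exon, for each of the 4 mice in the RBFOX, NOVA and neuronal ELAV-like families. In the ELAV-like family the share of Elavl3 was 77.6% and 77.4% in control mice and 66.7% and 62.4% in surgery mice, with larger shares of Elavl2 and Elavl4.

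The make-up of the families shifted with these changes, and is given without a test because the families were compared after their members' values were known. Elavl3 made up 77.6% and 77.4% of the neuronal ELAV-like level in control mice and 66.7% and 62.4% in surgery mice. The share of Elavl2 was 10.3% and 10.1% in control mice and 16.5% and 17.1% in surgery mice, and that of Elavl4 was 12.1% and 12.5% against 16.8% and 20.5%. Nova1 held 33.2% and 32.7% of the NOVA level in control mice and 40.2% and 40.3% in surgery mice, while the summed NOVA level was 15.5 to 16.1 in control mice and 14.3 to 14.6 in surgery mice. Rbfox1 held 47.2% and 45.2% of the RBFOX level in control mice and 51.0% and 53.7% in surgery mice. In each family the member with the lowest GC content had a larger share in both surgery mice than in either control mouse. As log2 ratios within a library, Elavl2 to Elavl3 differed by 0.98 between the groups and Nova1 to Nova2 by 0.46, and with the correction for GC content and length these differences were 0.19 and -0.41 on the longest transcript, or 0.53 and -0.47 on the mean over transcripts. The difference was 0.86 for Elavl4 to Elavl3, 0.42 for Rbfox1 to Rbfox3 and 0.28 for Rbfox1 to Rbfox2, with 0.10, -0.10 and -0.02 after correction on the longest transcript and 0.16, 0.26 and 0.42 on the mean over transcripts. The shift of Nova1 against Nova2 thus turned sign with both forms of the correction, and those of Rbfox1 only with the longest transcript.

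Of the 8 family members outside the 10, 6 changed, 4 higher and 2 lower, beside 26.0% of all genes tested (13.1% higher and 12.8% lower). Elavl1, the ubiquitous HuR, rose by 0.44 ± 0.07 (edgeR adjusted p = 0.00905), in the same direction as Elavl2 and Elavl4. Ptbp3, a PTB protein of blood and other tissues, rose by 0.98 ± 0.15 (edgeR adjusted p = 0.00695) from 18.4 and 13.9 CPM to 30.5 and 32.9 CPM, while Ptbp1 at 0.13 ± 0.19 did not pass. The CELF genes differed in direction. Celf1 and Celf2, which are expressed in many tissues, rose by 0.27 and 0.46, and Celf3 and Celf5, which are enriched in neurons, fell by 0.35 and 0.39 on the log2 scale (edgeR adjusted p = 0.0357, 0.00533, 0.0186 and 0.00694), while Celf6 stood at -0.18 (edgeR adjusted p = 0.294). The call of Celf1 was lost without control 1, control 2 or surgery 2, and that of Celf3 without control 1 or surgery 2. With each mouse left out in turn, Celf1 ran from 0.202 to 0.321 and Celf3 from -0.431 to -0.275. Celf4, enriched in neurons as well, moved with Celf1 and Celf2 rather than with Celf3 and Celf5. These directions also went with GC content, at 42.08% in Celf2, 46.61% in Celf1 and 49.29% in Celf4. It was 55.25% in Celf5, 56.23% in Celf3 and 58.28% in Celf6. The parts of tissue and base composition in this split were not tested. With the GC content and length correction 0 of the 8 passed edgeR's test, beside 3.03% of all genes. At an unadjusted p under 0.05 in edgeR were 3 of the 8, beside 22.8% of all genes. With the mean over transcripts 1 passed, Ptbp3 at 0.71 (edgeR adjusted p = 0.0418), beside 4.98% of all genes.

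**Figure D3:**
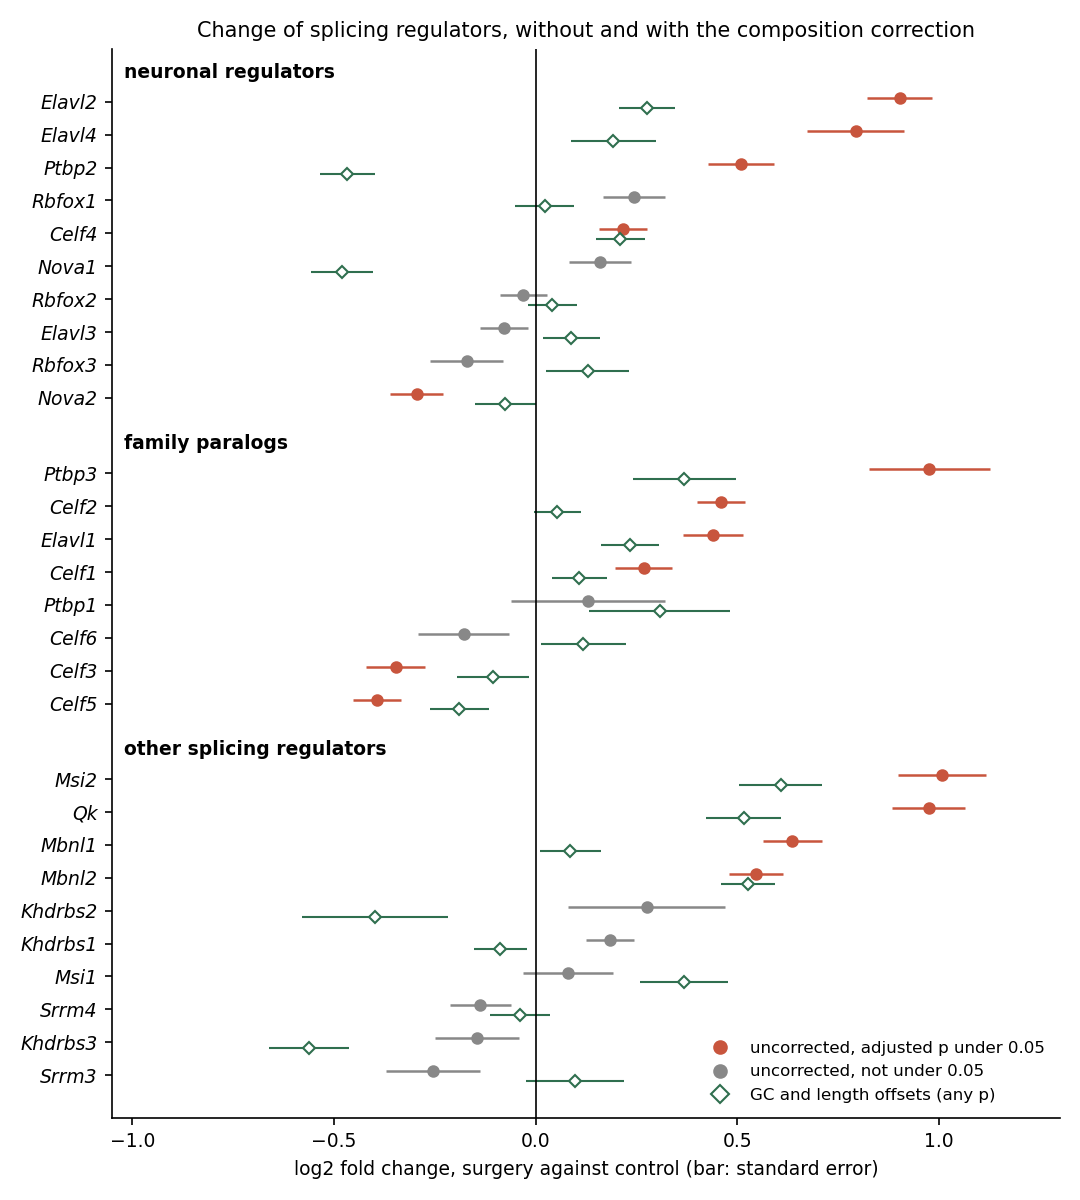
Log2 fold change of surgery over control with its standard error for the 10 neuronal regulators, 8 family paralogs and 10 other splicing regulators that were tested, without correction (filled, red where the edgeR adjusted p was under 0.05) and with GC content and length offsets (open diamonds). Most open diamonds lie nearer to 0 than the filled points, and among the members those of Nova1, Ptbp2, Rbfox2, Elavl3 and Rbfox3 lie on the other side of 0.

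Among splicing regulators of other families, 10 of 11 were tested and 4 changed, all higher, beside 26.0% of all genes (13.1% higher). Mbnl3, the muscleblind gene of muscle precursors, was near the detection limit, at 0.0547 to 0.125 CPM, and was not tested. Mbnl1 and Mbnl2, whose proteins drive the fetal-to-adult switch of exons, rose by 0.64 and 0.55 (edgeR adjusted p = 0.00464 and 0.00491). Qk, which controls myelin mRNAs in glia, rose by 0.98 (edgeR adjusted p = 0.00428), and Msi2, a translational regulator of the Musashi family, by 1.01 (edgeR adjusted p = 0.00446), the highest of this list. The lowest was Srrm3, a regulator of neuronal microexons, at -0.25 (edgeR adjusted p = 0.161). With the correction 4 of the 10 passed, beside 3.03% of all genes. Mbnl2 at 0.53, Qk at 0.52 and Msi2 at 0.61 passed as higher (edgeR adjusted p = 0.0196, 0.0422 and 0.0385), and Khdrbs3, the STAR protein SLM2 of neurons, passed as lower at -0.56 (edgeR adjusted p = 0.0415). With the mean over transcripts the calls of Mbnl2 at 0.25 (edgeR adjusted p = 0.0671) and Khdrbs3 at -0.27 (edgeR adjusted p = 0.184) were lost. Mbnl1 stood at 0.09 with the correction and did not pass (edgeR adjusted p = 0.556).

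Genes whose transcripts these proteins are known to bind or splice were counted as well, although a gene count does not show which exons are used. Of 15 such genes 8 changed, 1 higher and 7 lower, beside 26.0% of all genes (13.1% higher and 12.8% lower). Their median was -0.14 on the log2 scale, against 0.01 over all genes. Nf1, the neurofibromin gene, rose by 0.28 (edgeR adjusted p = 0.0229), a call that was lost without control 1, control 2 or surgery 1. Among the falls were Grin1, the obligatory NMDA receptor subunit, by 0.55, and Vamp1, a synaptic vesicle protein whose mRNA RBFOX1 binds, by 0.47 on the log2 scale (edgeR adjusted p = 0.00454 and 0.00491). Dlg4, which encodes PSD-95, and Src, both with exons that PTB proteins repress, fell by 0.36 and 0.52 on the log2 scale (edgeR adjusted p = 0.00905 and 0.00491). The channel genes Cacna1b and Scn8a fell by 0.32 and 0.26, and the kinase gene Camk2a by 0.26 on the log2 scale (edgeR adjusted p = 0.0149, 0.0184 and 0.0255). The calls of all 3 were lost without control 2, and that of Camk2a also without control 1 or surgery 2 and with scaling by neuron markers. Their sizes moved little with a mouse left out. Cacna1b ran from -0.36 to -0.283, Scn8a from -0.297 to -0.241 and Camk2a from -0.281 to -0.255. With the correction 3 of the 15 passed, beside 3.03% of all genes, all lower: Vamp1 at -0.60, Dlg4 at -0.51 and Snap25 at -0.61 (edgeR adjusted p = 0.0163, 0.0242 and 0.0242). With the mean over transcripts Vamp1 passed as lower too, while Dlg4 stood at -0.15 (edgeR adjusted p = 0.264) and Snap25 at -0.33 (edgeR adjusted p = 0.0649).

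**Figure D4:**
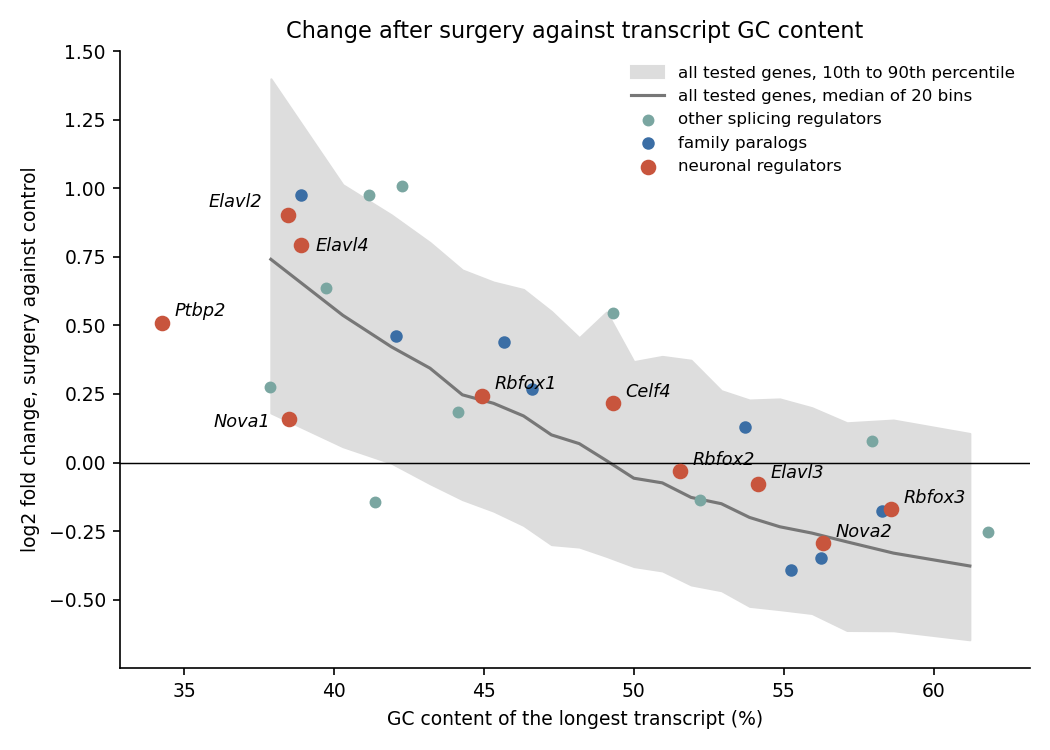
Log2 fold change of surgery over control against the GC content of the longest transcript in percent, for the 10 neuronal regulators (red, named), the family paralogs and the other splicing regulators, over the median (line) and the 10th to 90th percentile (band) of all tested genes in 20 bins of GC content. The members fall along the line of all genes, with Nova1 and Ptbp2 furthest below it and Celf4 furthest above it.

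The fold changes of the 10 members followed the GC content of their longest transcripts, from 34.3% in Ptbp2 to 58.6% in Rbfox3. Pearson's r was -0.84 and Spearman's rho -0.87 over these 10 genes, which share the 4 libraries. Over all 17120 genes with a transcript the values were -0.57 and -0.63, so the relation was not particular to the members. The poorest bin of GC content, up to 39.3%, held Elavl2, Elavl4, Nova1 and Ptbp2, and its 858 genes had a median of 0.74 on the log2 scale, with a 10th to 90th percentile of 0.18 to 1.40. Elavl2 at 0.90 and Elavl4 at 0.79 lay close to this median, Ptbp2 at 0.51 lay below it, and Nova1 at 0.16 lay under the 10th percentile. Nova2 at -0.30 lay close to the median of its own bin, -0.26, which spans 55.4% to 56.5%. Celf4 at 0.22 was the member furthest above the median of its bin, which was 0.01. The part of base composition in the changes of Elavl2, Elavl4 and Nova2 was not tested beyond the corrected values given above.

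Of 10 neuron markers 1 rose and 4 fell, from Tubb3 at -0.64 to Map2 at 0.53, with a median of -0.06, beside 26.0% of all genes called (12.8% lower). With the correction on the longest transcript only Map2 passed, at 0.43 (edgeR adjusted p = 0.0241), above the corrected values of Elavl2 and Elavl4. On the mean over transcripts Map2 at 0.31 (edgeR adjusted p = 0.0416) and Syt1 at -0.31 (edgeR adjusted p = 0.0443) passed, and Elavl2 lay higher than Map2. Set against the mean log2 level of these markers in the same mouse, the 10 members had a median difference of 0.31 between the groups (0.20 without surgery 2), and Elavl2 differed by 1.02, Elavl4 by 0.90, Ptbp2 by 0.63 and Nova2 by -0.17. Elavl2 stood at -3.20 and -3.27 relative to the markers in control mice and at -2.35 and -2.10 in surgery mice, so both surgery mice were higher on this scale too. All 26 markers of other cell types passed the filter. Of them 5 rose and 1 fell, beside 26.0% of all genes called (13.1% higher and 12.8% lower). With the correction 0 of the 26 passed on the longest transcript, beside 3.03% of all genes. On the mean over transcripts 1 passed, beside 4.98%. Astrocyte markers summed to 3305 to 3557 CPM in control mice and 3883 to 4105 CPM in surgery mice. Slc1a2 made up most of this, at means of 2215 and 2703 CPM. Of the 6 astrocyte markers 3 rose and 1 fell, from Aldh1l1 at -0.49 to Aqp4 at 0.73, and 0 passed with the correction on the longest transcript. Microglia markers summed to 248 to 256 CPM in control mice and 246 to 254 CPM in surgery mice. Of these 6 only P2ry12 passed, at 0.84 (edgeR adjusted p = 0.00464), with Cx3cr1 lowest at -0.305. With the correction P2ry12 stood at 0.24 (edgeR adjusted p = 0.217). Oligodendrocyte markers summed to 5329 to 6183 CPM in control mice, with 6084 CPM in surgery 1 and 3927 CPM in surgery 2, and endothelial markers to 145 to 146 CPM and 155 to 197 CPM. The part of these cells in the levels of Elavl1, Rbfox2, Qk and the other regulators that glia also express was not tested.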

How the data were processed

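Per the study's methods, mRNA of each hippocampus was enriched with oligo(dT), sequenced as paired-end reads and mapped to mm10 with HISAT. The submitters' processing notes name HISAT2 2.1.0, HTSeq 0.6.0, Bowtie2 2.2.3 and TopHat2 without their roles, and the use of strand is not given in the sources used here. The authors deposited raw counts per gene and mouse, with columns of their own comparison (means, fold changes and p-values), which were not used.

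The table of 29300 genes was fitted whole in edgeR 4.0.16 under R 4.3.3. After filterByExpr (minimum count 10) and TMM scaling, surgery was compared with control by the two-sided quasi-likelihood test of glmQLFTest, in the non-legacy mode of glmQLFit, and p-values were adjusted by the Benjamini-Hochberg method across 17144 genes. Genes with an adjusted p under 0.05 were called changed, and larger changes had a fold of at least 1.5 or at most 0.67. The SE of a log2 fold change was its size over the root of F. CPM used the scaled library sizes, ratios to neuron markers used log2 of CPM plus 0.5, and levels between genes were divided by the length of the union of exons. For the correction, each library's trend with GC content and length of the longest GENCODE M21 transcript was fitted with mgcv 1.9.3 (basis size 8) and entered as an offset. The mean over a gene's transcripts was added after seeing the data. Libraries of a group differed by more than counting noise (chi-square per degree of freedom 13.4 in control and 8.45 in surgery mice). This alone does not show that they came from separate mice. The pipeline was run on simulated counts with planted changes. These counts had no trend with GC content or length, so that run could not test the correction.

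The 10 members and all lists were chosen with earlier results of these data known. All members were named, as were the paralogs, other regulators and target genes that passed, and the highest and lowest gene of each regulator list. Khdrbs3 and Snap25 were named in addition after their corrected values were seen. Some genes first listed among the targets are not reported here, for a reason unrelated to their values, and the counts of targets cover the 15 others. The pairs of genes for ratios, apart from Ptbp2 and Ptbp1, were chosen after seeing the values. Alternatives were DESeq2 1.42.0 (its size factors and its test), library totals, scaling by neuron markers, no filter, a replicate block, the correction, both together, and leaving out each mouse. Amino acid sequences were not used here.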

Additional observations from a re-analysis of the deposited data

How the results depend on the processing

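The count of changed members was 5 and lay at 3 with no filter on low counts, 2 with the GC content and length correction, 3 with the mean over transcripts and 3 (without control 2 or surgery 2) to 5 without a single mouse. DESeq2's test and its size factors, library totals and scaling by neuron markers left the counts of changed members, paralogs, other regulators, targets, neuron markers, pooled markers of other cell types and all genes within 1.5 times. Over all genes, 4449 changed, with 2665 with no filter, 518 with the correction, 852 with the mean over transcripts and 2408 (without control 2; 2933 without surgery 2) to 4105 without a mouse. Members past the fold numbered 0 with the correction, with 4 members at an unadjusted p under 0.05 in edgeR (against 22.8% of all genes), and 1 with the mean over transcripts. The members' median log2 fold change of 0.19 stood at 0.24 with library totals or neuron scaling, 0.065 with the correction, 0.11 with the mean over transcripts and 0.13 to 0.21 without a mouse, and relative to neuron markers at 0.20 to 0.41 without a mouse. The Ptbp2 to Ptbp1 difference was -0.80 with the correction, -0.34 with the mean over transcripts and -0.018 (without control 2) to 0.71 without a mouse. The correction left 0 paralogs changed (3 at an unadjusted p under 0.05 in edgeR), 3 target genes, 1 neuron marker and 0 of the other cell types' markers (4 at an unadjusted p under 0.05). The mean over transcripts left 1 paralog, 2 other regulators, 1 target gene, 2 neuron markers and 1 other marker. Without a mouse the counts ran from 4 to 6 for paralogs, 4 (without control 2) to 7 for target genes, 5 to 6 for neuron markers and 7 to 12 (without surgery 1; 10 without control 2) for other markers. Among regulators and targets that passed the test with or without the correction, signs turned with it for Nova1 (-0.48, and -0.54 with the mean over transcripts), Ptbp2 (-0.47) and Snap25 (-0.61).

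Whether replicate numbers pair the mice is not known, as the labels name no shared litter or day. The deviations of same-numbered mice correlated at 0.22 over 17144 genes, with only 2 pairs. With the replicate number as a block, 6 members (Rbfox1 in addition, edgeR adjusted p = 0.0427), 5281 genes and 10 markers of other cell types changed. The block with the correction gave 4 changed members, with Elavl2 (0.28, edgeR adjusted p = 0.0217) and Celf4 (0.21, edgeR adjusted p = 0.0163) higher and Nova1 and Ptbp2 lower, 0 of them past the fold, a member median of 0.066, 2 paralogs, 7 target genes, 6 neuron markers, 6 markers of other cell types, 2659 genes, and the values -0.48 for Nova1, -0.47 for Ptbp2 and -0.61 for Snap25. The cause of these shifts was not tested. At 2 mice a group, small differences such as those of Nova2, Celf4 and Rbfox1 sit near the threshold, and gene counts carry no information on exon use.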
